A study of Mus musculus with 9 samples.

Results

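Collagens, laminins and integrins were followed in whole mouse retina, in a strain whose rods degenerate and in retinae that the labels call normal. The genes were taken by symbol: every numbered collagen chain, laminin chain and integrin symbol, together with fibronectin (Fn1) and tenascin C (Tnc), and without Itgam. Of the 21769 genes counted by the authors, 87 carried such a symbol. The 75 of these with at least 10 counts in at least 3 of the 9 libraries are described here, and all 75 were among the 14300 genes tested. They were 38 collagen chains, 10 laminin chains, 20 integrin subunits, Fn1, Tnc and 5 genes that match by name without encoding a subunit. The other 12, among them Col10a1, Col14a1, Lamb3 and the leukocyte integrins Itgae and Itgal, had too few counts.

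Polyadenylated RNA was sequenced from 3 groups, with 3 biological replicates each per the series' design text and 2 retinae in each library. The rd10 mice, which carry a mutation in Pde6b, the gene of a rod phosphodiesterase subunit, were taken at postnatal day 61, and their retinae are labelled degenerated. The GFP-expressing mice were taken at day 42 (the protocol gives this age to a line written Gg13, read here as the GFP group), and the wild type mice at day 48. The labels name no strain background, and neither the promoter nor the cells that carry GFP. Age therefore followed genotype in full, and the effects of age and of genotype cannot be told apart. In these bulk samples, fewer cells of a type and less RNA per cell cannot be told apart either.

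Collagens are trimers of alpha chains. Fibrillar collagens form cables, FACIT collagens sit on the surface of such cables, and type IV collagens form the sheet of basement membranes together with laminins, each of which joins an alpha, a beta and a gamma chain. Integrins, pairs of an alpha and a beta subunit, hold cells to these proteins. In the eye, the vitreous is built on type II and type IX collagen, and the end-feet of Müller glia rest on the inner limiting membrane, a basement membrane.

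Library totals ran from 9597635 to 12149448 counts. Levels are given as CPM, counts per 1000000 of the scaled library size, where 1 CPM stood for 8.72 to 13.6 counts. The 8 rod genes of a marker list summed to 501 to 1165 CPM in rd10, 77088 to 86740.0 CPM in GFP and 71189.6 to 95483 CPM in wild type, and all 8 were lower in rd10 in both comparisons. RNA of the lens was unevenly present. A list of 17 lens genes summed to 5.14, 5006 and 6.57 CPM in rd10 1 to 3. Its sums were 4025, 56.8 and 5.15 CPM in GFP 1 to 3, and 6.67, 4691 and 2030 CPM in wild type 1 to 3. The 5 libraries above 10 times the lowest sum, GFP 2 at 56.8 CPM among them, are called below the libraries with lens RNA. Long transcripts were under-represented in GFP 2 and wild type 3, where log2 CPM relative to the mean of the libraries changed by -0.33 and -0.24 per doubling of transcript length, against -0.11 to 0.22 in the other 7 libraries. The median length was 5784 bases for the 75 genes and 3218 bases for tested genes with a known length. Sums of Müller glial markers were 10595 to 11328 CPM in rd10, 5836 to 6794 CPM in GFP and 5088 to 6525 CPM in wild type, and those of microglial markers were 275 to 319 CPM in rd10, 86.3 to 133 CPM in GFP and 103 to 123 CPM in wild type. The part of these cell types in the results below was not tested.

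In rd10 against wild type, 22 of the 75 genes were higher and 3 lower, and 50 did not pass the test (edgeR quasi-likelihood test, adjusted p under 0.05 over all tested genes). Of all tested genes, 28.4% were called, 14.5% higher and 13.9% lower, while the median log2 fold change was 0.70 over the 75 genes and -0.03 over all genes. In rd10 against GFP, 24 were higher and 2 lower, beside 30.2% of all tested genes, 15.2% higher and 15% lower, and the medians were 0.83 over the 75 genes and -0.02 over all genes. Both comparisons use the same rd10 libraries. In both, 19 genes were higher and 2 lower, and the share of all tested genes called in both was not counted. In 32 genes every rd10 library lay above all 6 GFP and wild type libraries, as in 20.7% of all tested genes. Only 2 genes had every rd10 library below the 6 others, as did 19% of tested genes. Col13a1, Itga8, Itgax, Itgb1bp3, Itgb3, Itgb4 and Itgbl1 reached the count minimum only through rd10, and the counts and medians above include them. Among the other 68 genes 19 were higher and 3 lower than in wild type, and 21 were higher and 2 lower than in GFP. The median log2 fold changes of these 68 genes were 0.64 against wild type and 0.77 against GFP.

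**Figure D1:**
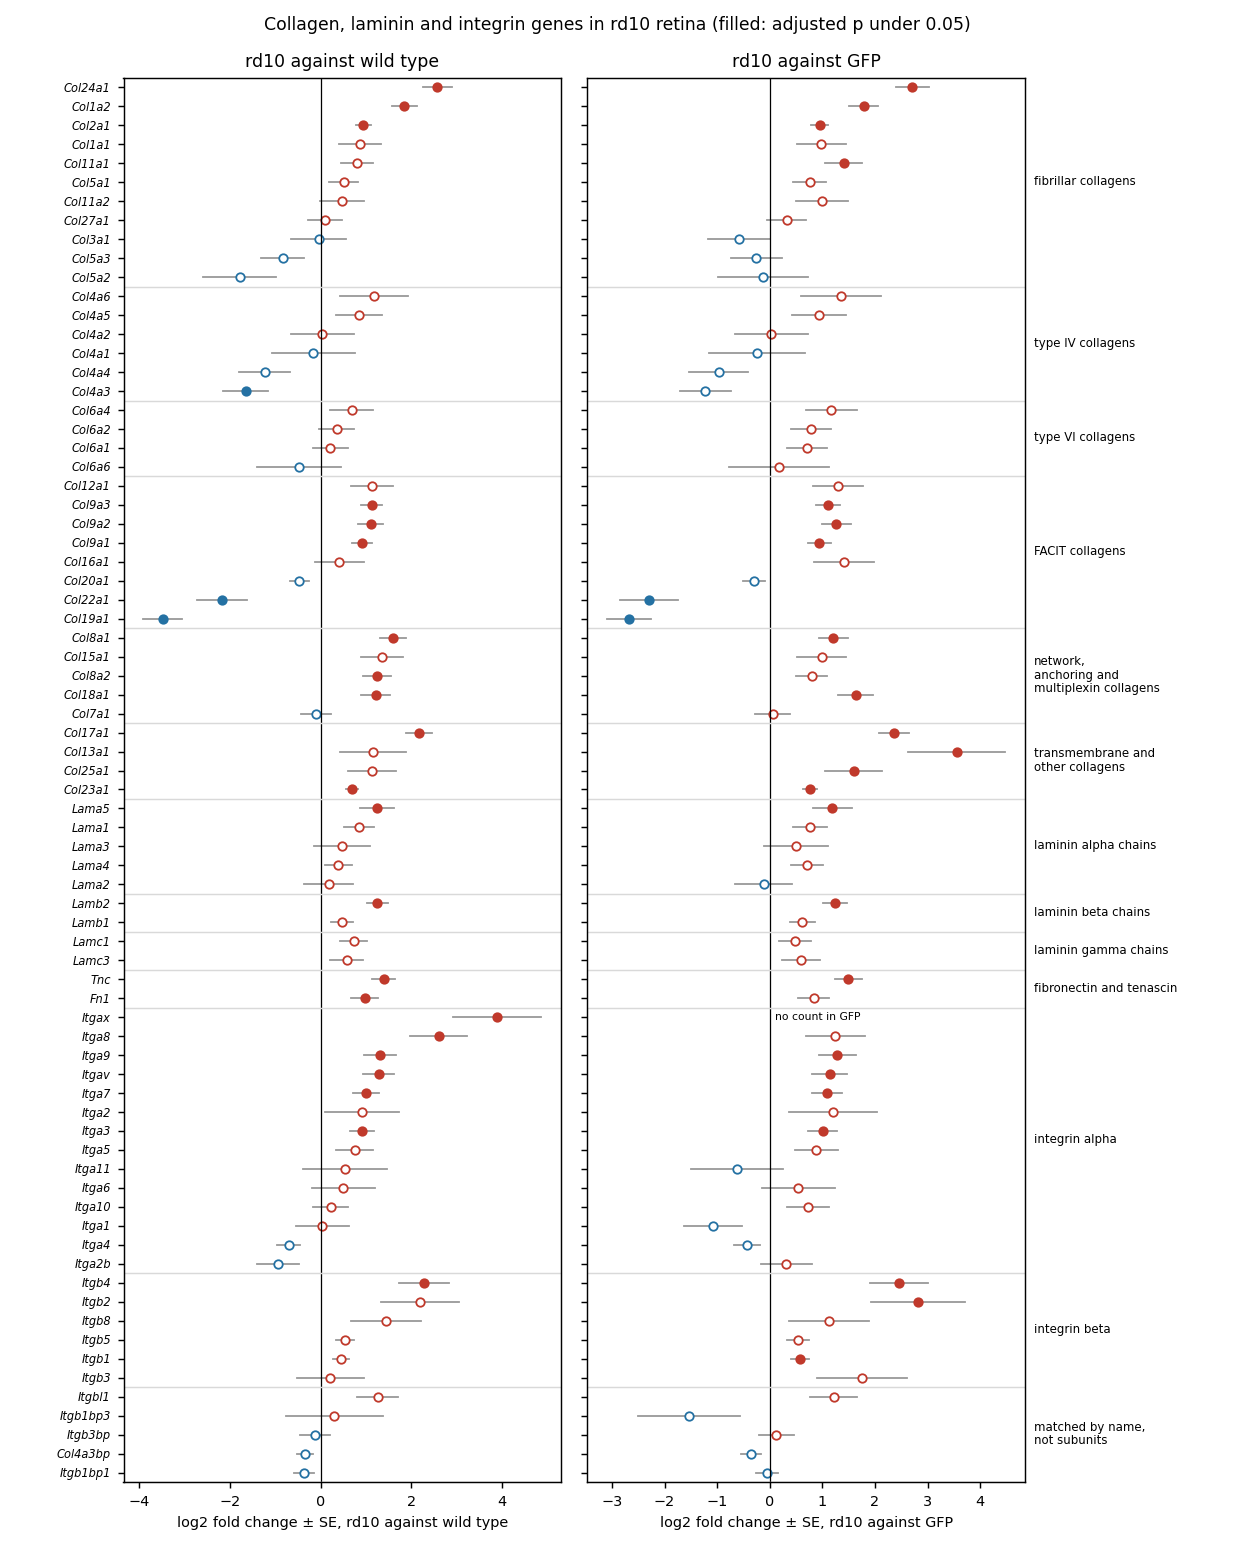
Log2 fold change ± SE (x axis) of 74 of the 75 genes, grouped by role, in rd10 against wild type (left) and rd10 against GFP (right). Filled points passed an adjusted p of 0.05 in edgeR's test, red points lie above 0 and blue points below. Most points lie right of 0, while Col19a1 and Col22a1 are the filled points on the left in both panels and Col4a3 in the left panel only.

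Among the fibrillar collagens, Col24a1, Col1a2 and Col2a1 rose in rd10 in both comparisons. Col24a1 (chromosome 3, 144955436 to 145214969, mm9, plus strand), a chain known from developing bone and cornea, rose most. Its levels were 19.4, 24.6 and 23.8 CPM in rd10, 4.35, 2.18 and 3.72 CPM in GFP and 5.25, 2.69 and 3.41 CPM in wild type. Every rd10 library stood above the 6 others, which reached at most 5.25 CPM, and the log2 fold change was 2.57 ± 0.32 (SE) against wild type (adjusted p = 2.49e-04) and 2.71 ± 0.32 against GFP (adjusted p = 1.70e-04). Col1a2 (chromosome 6, 4455697 to 4491543), a chain of type I collagen, had 22.7, 40.5 and 22.7 CPM in rd10, 8.53, 8.60 and 7.72 CPM in GFP and 6.16, 9.91 and 7.82 CPM in wild type. The groups did not overlap and rd10 2 was the highest library, with a log2 fold change of 1.84 ± 0.28 against wild type (adjusted p = 9.90e-04) and 1.79 ± 0.28 against GFP (adjusted p = 0.00112). Col2a1 (chromosome 15, 97806033 to 97835155), the type II collagen of vitreous and cartilage, had 116, 128 and 133 CPM in rd10, 69.1, 69.6 and 56.8 CPM in GFP and 70.6, 52.3 and 73.2 CPM in wild type. The rd10 libraries lay close together and apart from the others, and the log2 fold change was 0.94 ± 0.16 against wild type (adjusted p = 0.00237) and 0.95 ± 0.16 against GFP (adjusted p = 0.00225).

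Col1a1, the partner of Col1a2 in type I collagen, was low, at 1.84 to 2.98 CPM in rd10, 0.572 to 1.81 CPM in GFP and 1.31 to 1.44 CPM in wild type, and did not pass in either comparison (adjusted p = 0.179 and 0.135). Of a list of fibroblast markers, cells of sclera and corneal stroma, 2 of 7 tested genes were higher in rd10 than in wild type. Against GFP 4 of 7 were higher, beside 14.5% and 15.2% of all tested genes in the 2 comparisons. Its sum was 583 to 669 CPM in rd10, 326 to 433 CPM in GFP and 314 to 428 CPM in wild type. The 7 tested genes had a median log2 fold change of 1.10 against wild type and 1.23 against GFP. Of the 12 genes listed, Lum, Dpt and Kera were at or below 0.516 CPM in every library. The part of fibroblasts was not tested. Col11a1, which copolymerises with type II collagen, passed against GFP alone, with 22.3, 24.3 and 19.9 CPM in rd10, 9.43, 11.1 and 4.67 CPM in GFP and 17.8, 7.41 and 12.8 CPM in wild type. Its groups did not overlap, and it had a log2 fold change of 0.81 ± 0.35 against wild type (adjusted p = 0.104) and 1.40 ± 0.36 against GFP (adjusted p = 0.0146). Col27a1, a long chain of cartilage, had 20.3, 23.3 and 18.6 CPM in rd10, 16.4, 23.5 and 10.01 CPM in GFP and 24.5, 9.24 and 24.3 CPM in wild type. The groups overlapped (adjusted p = 0.86 against wild type and 0.535 against GFP). Col3a1, Col5a1, Col5a2, Col5a3 and Col11a2 did not pass in either comparison.

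The 3 chains of type IX collagen, a FACIT collagen of the vitreous, rose together. Col9a1 (chromosome 1, 24184449 to 24259577) had 66.2, 76.1 and 47.9 CPM in rd10, 33.9, 37.4 and 27.8 CPM in GFP and 29.5, 29.4 and 42.1 CPM in wild type. Col9a2 (chromosome 4, 120712171 to 120727930) had 9.96, 18.1 and 12.6 CPM in rd10, 4.35, 6.07 and 6.48 CPM in GFP and 5.55, 6.83 and 6.42 CPM in wild type. Col9a3 (chromosome 2, 180332927 to 180356890), which overlaps Tcfl5 so that some of its reads may belong to that gene, had 28.3, 28.7 and 22.4 CPM in rd10, 12.3, 13.98 and 10.7 CPM in GFP and 8.48, 12.8 and 14.9 CPM in wild type. In each, all rd10 libraries were above the 6 others, and the log2 fold changes were 0.91 ± 0.22, 1.11 ± 0.28 and 1.13 ± 0.23 against wild type (adjusted p = 0.0121, 0.0139 and 0.00584) and 0.94 ± 0.22, 1.27 ± 0.28 and 1.10 ± 0.23 against GFP (adjusted p = 0.0102, 0.00768 and 0.00638). Without rd10 2 the call of Col9a2 against wild type ended, at a log2 fold change of 0.87 (adjusted p = 0.0588), and without the 5 libraries with lens RNA both its calls ended (0.0508 against wild type and 0.125 against GFP).

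Col19a1 and Col22a1, also FACIT collagens, fell in rd10. Col19a1 (chromosome 1, 24264522 to 24594276, minus strand), a collagen of basement membrane zones, lies tail to tail with Col9a1, 4944 bases away. It had 2.05, 1.21 and 1.03 CPM in rd10, 5.90, 13.98 and 7.72 CPM in GFP and 13.6, 12.5 and 22.1 CPM in wild type. The rd10 libraries were the 3 lowest, 11.2-fold lower than wild type and 6.37-fold lower than GFP by the fitted means, with a log2 fold change of -3.48 ± 0.42 against wild type (adjusted p = 2.36e-04) and -2.67 ± 0.42 against GFP (adjusted p = 0.00124). Col22a1, a collagen of tissue junctions such as that of muscle and tendon, had 0.79, 0.483 and 0.221 CPM in rd10, 3.27, 2.52 and 1.62 CPM in GFP and 1.41, 2.60 and 2.81 CPM in wild type. All rd10 libraries were below the 6 others, with a log2 fold change of -2.17 ± 0.55 against wild type (adjusted p = 0.0152) and -2.29 ± 0.55 against GFP (adjusted p = 0.0115). It was at or below 3.27 CPM in every library, and its call against wild type ended without rd10 2, rd10 3, wild type 2 or wild type 3 (adjusted p from 0.0501 to 0.0631). Without the 5 libraries with lens RNA it passed in neither comparison, at -1.49 against wild type and -1.68 against GFP (adjusted p = 0.281 and 0.189). Col20a1, a chain of the same class, did not pass, at a log2 fold change of -0.46 ± 0.21 against wild type (adjusted p = 0.125) and -0.30 ± 0.21 against GFP (adjusted p = 0.299). Col12a1, a FACIT of dense connective tissue, had 21.7, 22.5 and 29.4 CPM in rd10, 16.1, 5.39 and 8.39 CPM in GFP and 18.8, 4.71 and 10.03 CPM in wild type. Its groups did not overlap, but the log2 fold change of 1.14 ± 0.47 against wild type (adjusted p = 0.0922) and 1.29 ± 0.47 against GFP (adjusted p = 0.0596) did not pass. It passed in both comparisons with DESeq2 (adjusted p = 0.047 and 0.0227) and with library totals (0.0435 and 0.0234). Of 19 alternatives it passed under 6 against wild type and 10 against GFP, and its highest adjusted p were 0.326 and 0.162. Col16a1 did not pass in either comparison.

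Of the network, anchoring and multiplexin collagens, Col8a1, Col8a2 and Col18a1 rose against wild type. Col18a1 (chromosome 10, 76514924 to 76629275), a basement membrane collagen that is the source of endostatin, had 138, 169 and 161 CPM in rd10, 56.6, 29.7 and 64.8 CPM in GFP and 38.8, 94.9 and 68.5 CPM in wild type. No rd10 library overlapped the others, while GFP 2 and wild type 1 were lowest. The log2 fold change was 1.21 ± 0.33 against wild type (adjusted p = 0.02) and 1.63 ± 0.33 against GFP (adjusted p = 0.00524), and the call against wild type ended without rd10 2, rd10 3 or wild type 3 (adjusted p from 0.0512 to 0.0574). Col8a1 and Col8a2, the chains of the network under the corneal endothelium, both rose against wild type, and Col8a1 also against GFP. Col8a1 had 25.05, 19.96 and 31.1 CPM in rd10, 15.3, 10.2 and 7.34 CPM in GFP and 8.18, 9.33 and 7.62 CPM in wild type, and Col8a2 had 8.38, 10.5 and 10.6 CPM in rd10, 5.53, 6.53 and 4.96 CPM in GFP and 2.42, 5.39 and 4.61 CPM in wild type. All rd10 libraries exceeded the 6 others for both genes, with log2 fold changes of 1.60 ± 0.28 against wild type (adjusted p = 0.00254) and 1.21 ± 0.28 against GFP (adjusted p = 0.0092) for Col8a1 and 1.24 ± 0.31 against wild type (adjusted p = 0.0137) and 0.79 ± 0.30 against GFP (adjusted p = 0.0699) for Col8a2. Col15a1, the other multiplexin, had a log2 fold change of 1.36 ± 0.47 against wild type (adjusted p = 0.0531) and 0.98 ± 0.46 against GFP (adjusted p = 0.13) and did not pass. Col7a1, the anchoring fibril collagen, had 12.8, 18.1 and 17.7 CPM in rd10, 18.6, 15.8 and 12.3 CPM in GFP and 22.5, 8.56 and 20.9 CPM in wild type, and the groups overlapped.

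**Figure D2:**
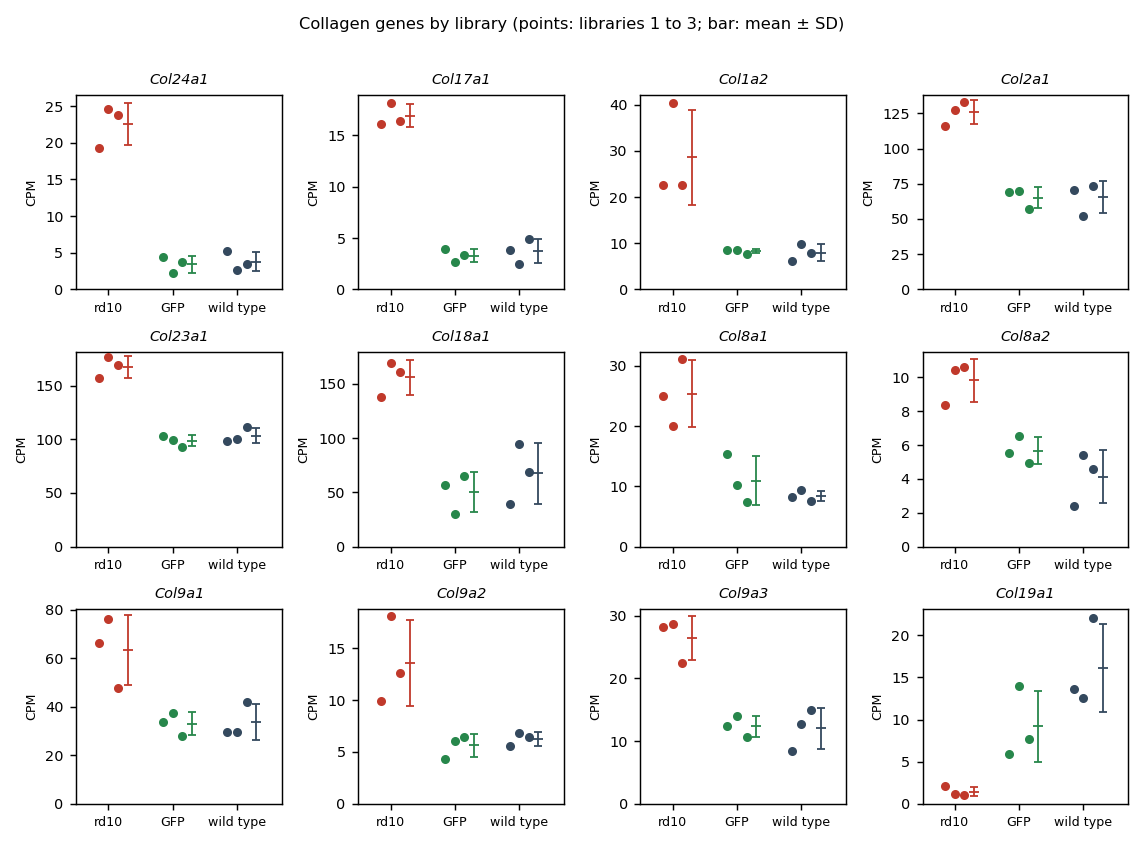
CPM (y axis) of 12 collagen genes in rd10, GFP and wild type, with 1 point for each of libraries 1 to 3 and the mean ± SD beside them. In Col24a1 the rd10 libraries lie between 19.4 and 24.6 CPM and the others at or below 5.25 CPM, and Col19a1 runs the other way, with rd10 at 1.03 to 2.05 CPM.

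Of the 4 transmembrane collagens, Col17a1 and Col23a1 rose in both comparisons. Col17a1 (chromosome 19, 47720831 to 47766532), which anchors cells at hemidesmosomes, had 16.1, 18.2 and 16.5 CPM in rd10, 3.90, 2.64 and 3.34 CPM in GFP and 3.84, 2.50 and 4.91 CPM in wild type. Its rd10 libraries differed little among themselves and none came near the 6 others, and the log2 fold change was 2.17 ± 0.28 against wild type (adjusted p = 3.86e-04) and 2.35 ± 0.29 against GFP (adjusted p = 2.16e-04). Col23a1 (chromosome 11, 51103422 to 51397427) had the highest level per transcript length of the 4, with 157, 176 and 169 CPM in rd10, 103, 99.7 and 93.2 CPM in GFP and 98.7, 100.1 and 111 CPM in wild type, and the groups did not overlap (log2 fold change 0.70 ± 0.13 against wild type (adjusted p = 0.00377) and 0.76 ± 0.13 against GFP (adjusted p = 0.00224)). Col13a1 and Col25a1 passed against GFP alone. Col13a1 had 1.74, 1.45 and 1.77 CPM in rd10, 0.181, 0 and 0.191 CPM in GFP and 0.606, 0.0962 and 1.50 CPM in wild type, so that 1 wild type library lay within the rd10 range. Col25a1 had 4.74, 3.62 and 5.24 CPM in rd10, 2.81, 0.458 and 1.14 CPM in GFP and 2.83, 1.54 and 1.81 CPM in wild type. Its call against GFP ended in 8 of the 9 fits that left out 1 library (adjusted p from 0.0517 to 0.13), while the fit without GFP 1 gave 2.47.

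The start regions of 3 collagen genes with some of the largest changes against wild type are shown, Col24a1 and Col17a1 upwards and Col19a1 downwards. Each window holds 250 bases before and 50 after the start of the gene in RefSeq (GRCm38.p6), at chr3:145292222-145292521 (plus strand), chr19:47691993-47692292 (minus strand) and chr1:24587388-24587687 (minus strand), and is written along the gene's strand. Capitals mark the CCAAT box, the GC box (letters GGGCGG), the TATA box (letters TATAAA) and the homeobox motif of photoreceptor genes (letters TAATCC), on either strand and without overlap between motifs. Among 27025 genes with a window these motifs occur in 41.1%, 38.2%, 15.7% and 8.14%, and 18, 33, 5 and 2 of the 54 genes described here that have one hold them.
Col24a1: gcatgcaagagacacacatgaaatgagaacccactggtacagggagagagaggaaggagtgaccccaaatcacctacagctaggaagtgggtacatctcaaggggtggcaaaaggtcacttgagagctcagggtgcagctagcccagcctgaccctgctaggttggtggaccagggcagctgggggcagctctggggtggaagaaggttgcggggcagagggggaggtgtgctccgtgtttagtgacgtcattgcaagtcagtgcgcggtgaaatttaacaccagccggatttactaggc
Col17a1: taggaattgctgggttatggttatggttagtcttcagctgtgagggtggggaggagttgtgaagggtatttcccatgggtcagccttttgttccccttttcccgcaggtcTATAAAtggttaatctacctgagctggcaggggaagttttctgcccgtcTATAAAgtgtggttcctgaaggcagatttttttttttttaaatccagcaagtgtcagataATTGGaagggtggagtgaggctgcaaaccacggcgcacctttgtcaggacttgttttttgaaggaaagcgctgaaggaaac
Col19a1: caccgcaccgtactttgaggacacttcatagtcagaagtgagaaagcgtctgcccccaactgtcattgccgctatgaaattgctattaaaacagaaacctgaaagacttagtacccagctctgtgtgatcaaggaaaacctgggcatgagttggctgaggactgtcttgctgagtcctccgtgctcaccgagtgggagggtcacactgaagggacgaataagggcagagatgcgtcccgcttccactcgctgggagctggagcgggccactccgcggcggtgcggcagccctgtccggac
Col17a1 held the TATA box 2 times and the CCAAT box 1 time, and neither Col24a1 nor Col19a1 held any of the 4 motifs in this window.

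The type IV collagens, the sheet of basement membranes, did not move as a class. Their 6 genes lie in 3 head-to-head pairs, Col4a1 with Col4a2 (2 bases between them in mm9), Col4a3 with Col4a4 (71 bases) and Col4a5 with Col4a6 (1342 bases). Col4a1 (chromosome 8, 11198423 to 11312826) and Col4a2 (11312829 to 11449287) had the highest levels per transcript length of the 6, at 17.1 and 15.1 CPM per kilobase in rd10, or 8.43 and 9.90 without rd10 2. Col4a1 had 50.1, 228 and 61.5 CPM in rd10, 330.5, 30.8 and 38.5 CPM in GFP and 42.3, 240.1 and 96.6 CPM in wild type, and Col4a2 had 53.7, 165 and 74.00 CPM in rd10, 219, 34.04 and 34.4 CPM in GFP and 55.6, 151 and 78.7 CPM in wild type. In every group 1 library stood far above its replicates, rd10 2, GFP 1 and wild type 2, and these are the libraries with the most lens RNA in their groups. The log2 fold change of Col4a1 was -0.16 ± 0.92 against wild type (adjusted p = 0.912) and -0.24 ± 0.92 against GFP (adjusted p = 0.859), and that of Col4a2 was 0.04 ± 0.70 against wild type (adjusted p = 0.973) and 0.03 ± 0.70 against GFP (adjusted p = 0.98). With the lens sum as a term of the model the fold changes of Col4a1 became 0.54 and 0.35, and neither passed.

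Of the 75 genes, 9 had their highest level of each group in rd10 2, GFP 1 and wild type 2, namely all but Col4a3 of the type IV chains with Col1a1, Itga6, Itgb1 and Lama2. That was 12% of the 75 genes and 2.48% of all tested genes. Col4a6 had 11.1, 22.7 and 11.1 CPM in rd10, 12.9, 1.95 and 2.57 CPM in GFP and 2.02, 13.5 and 4.21 CPM in wild type. Its rd10 libraries overlapped the others only through GFP 1 and wild type 2, and the log2 fold change of 1.19 ± 0.75 against wild type (adjusted p = 0.254) and 1.35 ± 0.75 against GFP (adjusted p = 0.192) did not pass. With the lens sum in the model it was 2.00 against wild type and 1.88 against GFP (adjusted p = 0.0215 and 0.0209). Col4a5 had 22.1, 45.9 and 20.7 CPM in rd10, 30.8, 8.02 and 7.53 CPM in GFP and 15.5, 20.9 and 12.9 CPM in wild type. Its log2 fold change was 0.85 ± 0.51 against wild type (adjusted p = 0.237) and 0.93 ± 0.51 against GFP (adjusted p = 0.191), and with the lens sum in the model it passed against GFP at 1.15 (adjusted p = 0.0454). The genes for these looks at lens RNA were chosen after their values had been seen.

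Col4a3 and Col4a4 are chains of mature basement membranes such as that of the glomerulus, and Col4a3 fell against wild type. Col4a3 (chromosome 1, 82583496 to 82718634) had 7.03, 25.5 and 9.59 CPM in rd10, 55.1, 23.3 and 19.8 CPM in GFP and 51.00, 46.8 and 34.6 CPM in wild type. All rd10 libraries lay below all wild type libraries, but rd10 2 lay above GFP 2 and GFP 3. The log2 fold change was -1.65 ± 0.49 against wild type (adjusted p = 0.03) and -1.22 ± 0.49 against GFP (adjusted p = 0.0803), and the call against wild type ended without rd10 1, rd10 3, wild type 1 or wild type 2 (adjusted p from 0.0775 to 0.112), with -2.38 without rd10 2, and it ended with library totals in place of scaled library sizes (adjusted p = 0.0572). Col4a4 had 2.37, 10.8 and 3.02 CPM in rd10, 16.96, 6.76 and 7.82 CPM in GFP and 12.3, 17.2 and 8.42 CPM in wild type. Here rd10 2 stood above GFP 2, GFP 3 and wild type 3, with a log2 fold change of -1.23 ± 0.56 against wild type (adjusted p = 0.121) and -0.97 ± 0.56 against GFP (adjusted p = 0.209), and it did not pass. When the 5 libraries with lens RNA were left out, which keeps rd10 1, rd10 3, GFP 3 and wild type 1, the log2 fold changes against wild type were -2.62 for Col4a3, -2.19 for Col4a4 and 2.45 for Col4a6. That fit takes its spread from the 2 rd10 libraries alone.

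For each of the 3 pairs the RefSeq window of 1 gene is printed, which does not stand for its partner, and Col4a3 has no such window. The windows lie at chr8:11312777-11313076 (minus strand), chr1:82586800-82587099 (minus strand) and chrX:141474027-141474326 (minus strand), in GRCm38.p6 coordinates.
Col4a1: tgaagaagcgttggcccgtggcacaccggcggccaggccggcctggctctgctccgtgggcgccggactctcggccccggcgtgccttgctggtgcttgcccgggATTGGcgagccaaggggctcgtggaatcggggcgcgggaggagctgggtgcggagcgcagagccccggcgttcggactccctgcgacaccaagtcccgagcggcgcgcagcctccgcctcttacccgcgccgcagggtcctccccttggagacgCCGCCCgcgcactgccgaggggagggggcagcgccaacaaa
Col4a4: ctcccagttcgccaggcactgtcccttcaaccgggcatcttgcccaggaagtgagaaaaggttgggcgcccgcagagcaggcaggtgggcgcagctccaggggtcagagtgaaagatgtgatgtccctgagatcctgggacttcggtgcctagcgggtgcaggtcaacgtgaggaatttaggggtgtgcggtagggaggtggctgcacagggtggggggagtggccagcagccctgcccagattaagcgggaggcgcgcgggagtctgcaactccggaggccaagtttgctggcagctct
Col4a6: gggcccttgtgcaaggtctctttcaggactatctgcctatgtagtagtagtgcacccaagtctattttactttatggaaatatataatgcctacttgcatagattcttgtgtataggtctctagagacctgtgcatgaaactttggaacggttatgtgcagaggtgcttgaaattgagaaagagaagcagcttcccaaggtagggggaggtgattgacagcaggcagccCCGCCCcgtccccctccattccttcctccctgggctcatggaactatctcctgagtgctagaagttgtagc
The windows differed in base composition, with 74% G and C for Col4a1, 63.3% for Col4a4 and 48.3% for Col4a6. Col4a1 held the CCAAT box and the GC box 1 time each, Col4a6 held the GC box 1 time, and Col4a4 held none of the 4 motifs. Of the partner windows not printed, that of Col4a2 held the GC box 3 times and the CCAAT box 1 time. That of Col4a5 held each 1 time.

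**Figure D3:**
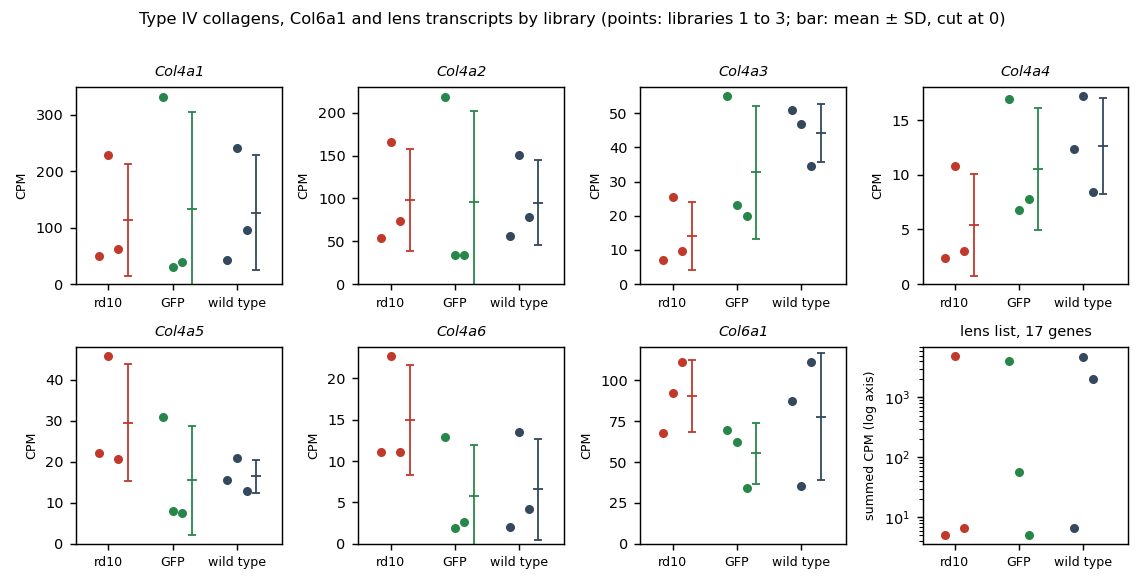
CPM (y axis) of the 6 type IV collagen genes and Col6a1, and the summed CPM of 17 lens genes on a log axis, by library in rd10, GFP and wild type, with mean ± SD for the genes. Col4a1 is highest in rd10 2, GFP 1 and wild type 2, at 228, 330.5 and 240.1 CPM, where the lens sum is 5006, 4025 and 4691 CPM.

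The type VI collagens, beaded filaments of many tissues, did not pass in either comparison. Col6a1 had 67.8, 92.2 and 111 CPM in rd10, 69.5, 62.1 and 34.2 CPM in GFP and 87.3, 35.1 and 111 CPM in wild type and Col6a2 had 9.80, 17.6 and 16.5 CPM in rd10, 11.3, 8.14 and 6.10 CPM in GFP and 15.05, 5.58 and 13.7 CPM in wild type, with overlapping groups in both. The log2 fold changes of Col6a1 were 0.22 ± 0.38 against wild type (adjusted p = 0.692) and 0.71 ± 0.38 against GFP (adjusted p = 0.18). Col6a4 and Col6a6 were at or below 8.48 CPM in every library.

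Of the 10 laminin chains, Lama5 and Lamb2 rose in both comparisons and 8 did not pass in either. That was 20% of the chains, beside 14.5% of all tested genes higher against wild type and 15.2% against GFP. Lamb2 (chromosome 9, 108382193 to 108392861), the beta chain of retinal basement membranes and of the matrix around photoreceptors, had 54.9, 68.98 and 77.02 CPM in rd10, 33.3, 19.9 and 32.1 CPM in GFP and 25.5, 33.8 and 24.8 CPM in wild type. The groups did not overlap and the log2 fold change was 1.26 ± 0.23 against wild type (adjusted p = 0.00312) and 1.23 ± 0.23 against GFP (adjusted p = 0.00327). Lama5 (chromosome 2, 179911078 to 179960564), an alpha chain of mature basement membranes, had 45.7, 61.6 and 83.96 CPM in rd10, 45.3, 14.1 and 24.3 CPM in GFP and 29.2, 31.3 and 20.8 CPM in wild type. Its rd10 libraries spread widely, and rd10 1 stood just above GFP 1. The log2 fold change was 1.24 ± 0.37 against wild type (adjusted p = 0.0318) and 1.19 ± 0.37 against GFP (adjusted p = 0.0346). The call ended against wild type without rd10 2, rd10 3 or any 1 wild type library (adjusted p from 0.0622 to 0.111), and against GFP without rd10 2, rd10 3, GFP 2 or GFP 3 (adjusted p from 0.0508 to 0.127).

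Lamc1, the gamma chain of most laminins, had 43.7, 46.9 and 57.1 CPM in rd10, 45.2, 20.1 and 40.3 CPM in GFP and 35.3, 33.4 and 20.3 CPM in wild type. GFP 1 lay within the rd10 range, and the log2 fold change was 0.73 ± 0.30 against wild type (adjusted p = 0.0907) and 0.48 ± 0.30 against GFP (adjusted p = 0.239). Lama1, the alpha chain of the inner limiting membrane, had 16.1, 21.4 and 21.1 CPM in rd10, 17.96, 6.99 and 9.53 CPM in GFP and 12.4, 11.9 and 8.02 CPM in wild type. GFP 1 lay within the rd10 range, with a log2 fold change of 0.86 ± 0.33 against wild type (adjusted p = 0.0727) and 0.76 ± 0.33 against GFP (adjusted p = 0.0996), so it did not pass either. Lamb1, Lama2, Lama3, Lama4 and Lamc3 did not pass, with log2 fold changes against wild type from 0.18 for Lama2 to 0.58 for Lamc3. Like 18 of the 75 genes and 25.2% of all tested genes, Lama5, Lamb2, Lamc1 and Lama1 were lowest within their groups in GFP 2 and wild type 3, the libraries poor in long transcripts. With the trend of transcript length removed from each library, all 25 genes called against wild type and all 26 called against GFP were called again. In that fit 36.0% and 38.5% of all tested genes were called. Of the 75 genes, 22 were then higher and 6 lower against wild type, and 26 were higher and 6 lower against GFP.

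Fibronectin and tenascin C, large glycoproteins bound by several integrins, were both higher in rd10 than in wild type. Tnc (chromosome 4, 63620819 to 63708049), which in other tissues appears in development and injury, had 72.1, 70.4 and 89.7 CPM in rd10, 38.00, 19.5 and 24.98 CPM in GFP and 35.1, 23.00 and 30.4 CPM in wild type. All rd10 libraries lay above the rest, with a log2 fold change of 1.39 ± 0.25 against wild type (adjusted p = 0.0029) and 1.49 ± 0.25 against GFP (adjusted p = 0.00196). Fn1 (chromosome 1, 71632097 to 71699745) had 102, 94.9 and 143 CPM in rd10, 78.3, 40.2 and 72.3 CPM in GFP and 76.2, 58.1 and 39.4 CPM in wild type. The groups did not overlap, and the log2 fold change of 0.97 ± 0.29 against wild type (adjusted p = 0.0315) and 0.83 ± 0.29 against GFP (adjusted p = 0.0518) passed against wild type and stood at the threshold against GFP. The call against wild type ended without rd10 1, rd10 3, wild type 2 or wild type 3 (adjusted p from 0.0591 to 0.112) and with the lens sum as a term (0.0575). Against GFP, Fn1 passed under 11 of 19 alternatives, among them DESeq2 (adjusted p = 0.0258), upper quartile scaling (0.0261) and the removal of the length trend (0.0101). Whether the change of Fn1 differs between the comparisons was not tested.

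Of the 20 integrin subunits, 7 were higher in rd10 than in wild type, 8 were higher than in GFP, and none was lower in either comparison. Itga8, Itgax, Itgb3 and Itgb4 reached the count minimum only through rd10, and of the other 16 subunits 4 were higher than in wild type and 6 than in GFP, or 25% and 37.5% beside 14.5% and 15.2% of all tested genes. Among alpha subunits these were Itga3, Itga7, Itga8, Itga9, Itgav and Itgax against wild type. Itgav (chromosome 2, 83564554 to 83647073), which joins several beta subunits to bind fibronectin and vitronectin, had 90.2, 87.2 and 89.5 CPM in rd10, 58.2, 20.9 and 41.9 CPM in GFP and 51.2, 32.04 and 26.7 CPM in wild type. The rd10 libraries were close to each other and above the rest, and GFP 2 and wild type 3 were lowest. The log2 fold change was 1.28 ± 0.33 against wild type (adjusted p = 0.0165) and 1.14 ± 0.33 against GFP (adjusted p = 0.0256). Its call ended without wild type 2 or wild type 3 (adjusted p = 0.0653 and 0.0642), and that against GFP ended without any 1 rd10 library or GFP 3 (adjusted p from 0.0602 to 0.071).

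Itga3 and Itga7 bind laminins and Itga9 binds tenascin C, each joined to the beta 1 subunit. Itga9 had 22.1, 19.96 and 26.2 CPM in rd10, 14.5, 4.36 and 9.06 CPM in GFP and 8.79, 10.9 and 7.82 CPM in wild type. Itga7, which overlaps Mettl7b in the annotation, had 15.4, 10.9 and 16.97 CPM in rd10, 8.80, 6.99 and 4.58 CPM in GFP and 6.77, 8.18 and 6.62 CPM in wild type. Itga3, named after its values were seen, had 50.4, 51.03 and 64.7 CPM in rd10, 41.5, 18.2 and 22.98 CPM in GFP and 29.2, 31.5 and 27.7 CPM in wild type. In all 3 genes the rd10 libraries exceeded the 6 others, with log2 fold changes of 1.31 ± 0.35 against wild type (adjusted p = 0.0189) and 1.28 ± 0.35 against GFP (adjusted p = 0.0199) for Itga9, 1.01 ± 0.28 against wild type (adjusted p = 0.0226) and 1.09 ± 0.28 against GFP (adjusted p = 0.0158) for Itga7 and 0.91 ± 0.27 against wild type (adjusted p = 0.0289) and 1.00 ± 0.27 against GFP (adjusted p = 0.0186) for Itga3. These calls were close to the threshold: against wild type that of Itga9 ended without rd10 3, wild type 1 or wild type 3 (adjusted p from 0.0509 to 0.0668), that of Itga7 without rd10 1, rd10 3, wild type 1 or wild type 3 (0.0552 to 0.0789), and that of Itga3 without any 1 rd10 or wild type library (0.0526 to 0.0945). Against GFP they ended without rd10 3 or GFP 3, and for Itga9 and Itga7 also without rd10 1 (adjusted p from 0.0534 to 0.071).

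Itga8, which binds nephronectin, had 2.29, 4.10 and 1.70 CPM in rd10, 1.45, 0.458 and 1.43 CPM in GFP and 0.606, 0.192 and 0.501 CPM in wild type. Its log2 fold change was 2.61 ± 0.63 against wild type (adjusted p = 0.0119) and 1.25 ± 0.56 against GFP (adjusted p = 0.115), and the call against wild type ended without rd10 2 (adjusted p = 0.0521) and, at 1.69, without the 5 libraries with lens RNA (0.185). Itga4, a subunit best known from leukocytes that overlaps Cerkl in the annotation, had 29.1, 33.3 and 39.99 CPM in rd10, 48.6, 44.6 and 44.9 CPM in GFP and 66.8, 33.00 and 66.7 CPM in wild type. With a log2 fold change of -0.70 ± 0.25 against wild type (adjusted p = 0.0585) and -0.43 ± 0.25 against GFP (adjusted p = 0.21) it did not pass, and it passed against wild type without wild type 2 at -0.95 (adjusted p = 0.00654) or without GFP 2 (0.0484). The other alpha subunits, Itga1, Itga2, Itga2b, Itga5, Itga6, Itga10 and Itga11, did not pass in either comparison.

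Among the beta subunits, Itgb4 rose in both comparisons but reached the count minimum only through rd10. It pairs with Itga6 at hemidesmosomes, where Col17a1 also sits, and had 3.24, 3.38 and 3.62 CPM in rd10, 0.816, 0.115 and 0.858 CPM in GFP and 0.909, 0.674 and 0.501 CPM in wild type. Every rd10 library was above the 6 others, at a low level, and the log2 fold change was 2.28 ± 0.55 against wild type (adjusted p = 0.0117) and 2.46 ± 0.55 against GFP (adjusted p = 0.00846). Itgb4 overlaps Galk1 in the annotation. Itga6 had 5.61, 13.4 and 9.44 CPM in rd10, 12.6, 2.29 and 4.48 CPM in GFP and 4.95, 13.3 and 1.81 CPM in wild type, with its highest level in the library with the most lens RNA of each group, and a log2 fold change of 0.50 ± 0.69 against wild type (adjusted p = 0.61) and 0.54 ± 0.69 against GFP (adjusted p = 0.573). Markers of corneal epithelium, a tissue with many hemidesmosomes, summed to 23.9 to 47.6 CPM in rd10, 11.7 to 29.7 CPM in GFP and 12.7 to 39.4 CPM in wild type. Of 4 tested markers 2 were higher in rd10 than in wild type and 1 than in GFP, beside 14.5% and 15.2% of all tested genes. Their median log2 fold changes were 1.42 and 1.01. Of the 8 markers listed, Krt5 was at or below 2.43 CPM in every library. The part of corneal epithelium was not tested. Without the 5 libraries with lens RNA the call of Itgb4 against wild type ended (1.90, adjusted p = 0.0584).

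Itgb1, the partner of most alpha subunits, had 71.2, 90.2 and 60.1 CPM in rd10, 55.3, 42.9 and 50.1 CPM in GFP and 52.7, 58.1 and 51.8 CPM in wild type. The groups did not overlap, and the log2 fold change was 0.45 ± 0.17 against wild type (adjusted p = 0.0776) and 0.58 ± 0.17 against GFP (adjusted p = 0.0296). It passed against GFP alone, and that call ended without rd10 1, rd10 2, GFP 2 or GFP 3 (adjusted p from 0.0614 to 0.124) and without the 5 libraries with lens RNA (0.317). Itgb5, which with Itgav forms the receptor used by the pigment epithelium to take up outer segments, had 104, 99.8 and 121 CPM in rd10, 83.98, 54.7 and 85.4 CPM in GFP and 60.8, 89.3 and 73.00 CPM in wild type. No rd10 library lay below any other library, but the log2 fold change of 0.54 ± 0.20 against wild type (adjusted p = 0.0683) and 0.54 ± 0.20 against GFP (adjusted p = 0.0684) did not pass. It passed against wild type without GFP 2 (adjusted p = 0.0131). Itgb8, the partner of Itgav in activating TGF-beta, had 22.3, 14.4 and 37.9 CPM in rd10, 21.6, 1.49 and 10.9 CPM in GFP and 15.8, 9.24 and 2.41 CPM in wild type. Its log2 fold change was 1.45 ± 0.77 against wild type (adjusted p = 0.18) and 1.12 ± 0.76 against GFP (adjusted p = 0.278). Its levels varied widely within each group, lowest in GFP 2 and wild type 3, and without GFP 2 it passed against wild type at 1.47 (adjusted p = 0.0459).

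The leukocyte subunits Itgax and Itgb2, which form a receptor of myeloid cells, were low. Itgax rose in both comparisons and Itgb2 against GFP alone, and Itgax reached the count minimum only through rd10. Itgax had 12, 15 and 17 counts in rd10, 0 in each GFP library and 2, 0 and 0 in wild type. The ratio of rd10 to wild type was 17.2 with an exact 95% interval from 4.50 to 146.8, which covers counting error only, and against a floor of 3 counts per library rd10 was at least 3.78-fold higher than GFP. Its adjusted p was 0.0188 against wild type and 0.00766 against GFP. The call against wild type ended without rd10 2, rd10 3, wild type 2 or wild type 3 (adjusted p from 0.056 to 0.0654) and without the 5 libraries with lens RNA (0.224). Itgb2 had 3.24, 5.79 and 4.80 CPM in rd10, 1.54, 0.344 and 0 CPM in GFP and 1.21, 0.192 and 1.60 CPM in wild type. No rd10 library overlapped the others, with a log2 fold change of 2.19 ± 0.85 against wild type (adjusted p = 0.0756) and 2.82 ± 0.89 against GFP (adjusted p = 0.0353). The call against GFP ended without any 1 rd10 library, GFP 2 or GFP 3 (adjusted p from 0.0585 to 0.0949) and stood at 4.78 without GFP 1. Without any 1 GFP library, Itgb2 passed against wild type as well (adjusted p from 0.0342 to 0.043). Of 16 microglial and macrophage markers, 10 were higher in rd10 than in wild type and 12 than in GFP. Of all tested genes 14.5% and 15.2% were higher.

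**Figure D4:**
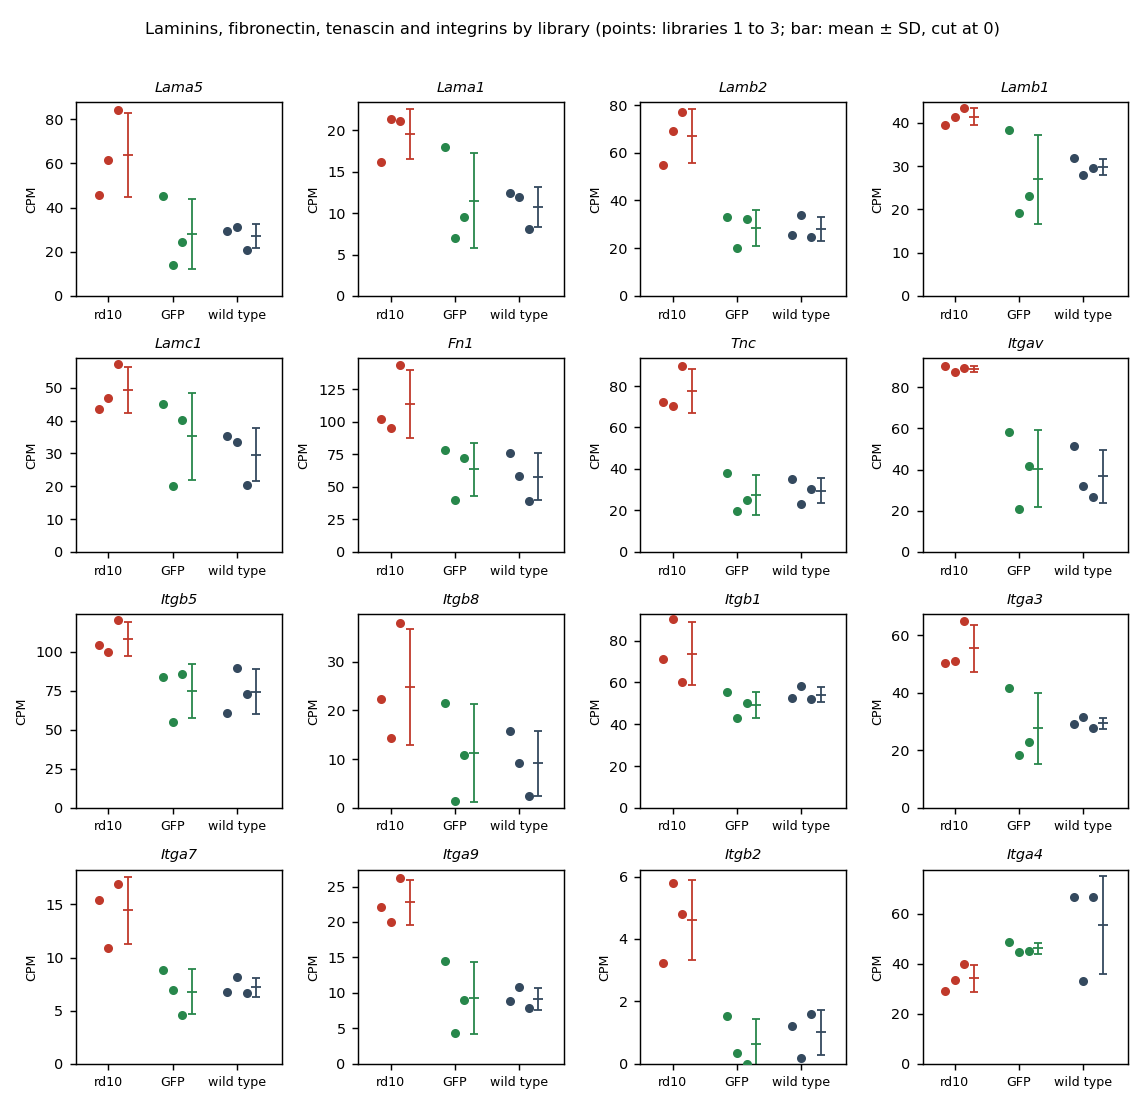
CPM (y axis) of 16 laminin, fibronectin, tenascin and integrin genes in rd10, GFP and wild type, with 1 point for each of libraries 1 to 3 and the mean ± SD beside them. Itgav lies between 87.2 and 90.2 CPM in rd10 and at or below 58.2 CPM elsewhere, while Itgb8 and Lamc1 overlap between groups.

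The 5 genes that match by name without encoding a subunit did not pass in either comparison. Col4a3bp, which encodes a ceramide transfer protein, had 87.9, 78.5 and 72.1 CPM in rd10, 118, 85.8 and 101 CPM in GFP and 125, 94.97 and 82.9 CPM in wild type. The rd10 and GFP libraries overlapped, with a log2 fold change of -0.34 ± 0.19 against wild type (adjusted p = 0.186) and -0.36 ± 0.19 against GFP (adjusted p = 0.166). With the trend of transcript length removed it was lower, at -0.52 against wild type and -0.53 against GFP (adjusted p = 0.0111 and 0.00917). Itgb1bp1, whose product binds the tail of integrin beta 1 and whose gene overlaps Asap2, had 15.9, 18.2 and 16.5 CPM in rd10, 14.7, 20.4 and 17.4 CPM in GFP and 15.96, 23.4 and 25.6 CPM in wild type, and the groups overlapped. Itgb3bp and Itgbl1 had log2 fold changes against wild type of -0.11 ± 0.33 and 1.26 ± 0.45, and Itgb1bp3 was at or below 3.67 CPM in every library.

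Divided by transcript length, the 5 highest levels in rd10 were those of Itgb5 (33.00 CPM per kilobase), Col23a1 (29.6), Col18a1 (27.9), Col2a1 (24.6) and Col6a1 (22.1). In wild type the 5 highest were Itgb5 (22.7), Col4a1 (19.1), Col4a3bp (19.1), Col6a1 (18.97) and Col23a1 (18.3). The level of Col4a1 rested on wild type 2 and was 10.5 without it. Col18a1 and Col2a1 stood at 12.04 and 12.8 CPM per kilobase in wild type. Col24a1, the gene with the largest rise among those above 5 CPM in rd10, stood at 3.16 CPM per kilobase in rd10, 0.478 in GFP and 0.53 in wild type.

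Other lists of matrix genes were counted in the same way, beside 14.5% of all tested genes higher and 13.9% lower. Against wild type, 6 of 14 other basement membrane genes were higher in rd10, none was lower and 8 did not pass. The smallest adjusted p were those of Frem1, which joins epithelium to its matrix, at a log2 fold change of 1.30 ± 0.25, agrin (Agrn) at 1.12 ± 0.27 and Fras1, a partner of Frem1, at 1.25 ± 0.31. Of 22 genes that process collagen, 8 were higher, 1 was lower and 13 did not pass, with the smallest adjusted p for the cross-linking oxidase Loxl4 at 1.75 ± 0.34, the collagen glycosyltransferase Glt25d2 at 1.14 ± 0.26 and the propeptide protease Bmp1 at 1.20 ± 0.27. Of 17 matrix proteases and inhibitors, 6 were higher, none was lower and 11 did not pass, with the smallest adjusted p for the inhibitors Timp3 at 1.22 ± 0.16 and Timp2 at 1.07 ± 0.15 and the protease Adamts5 at 1.46 ± 0.23. The adjusted p of these 9 genes ran from 3.31e-04 for Timp3 to 0.0126 for Fras1.

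Of 21 proteoglycans and other matrix proteins, 11 were higher, 1 was lower and 9 did not pass. Vitronectin (Vtn), a ligand of Itgav, was the lower one, with 71.9, 78.7 and 81.8 CPM in rd10, 1176, 1924 and 1440.2 CPM in GFP and 1092, 1554 and 1325 CPM in wild type. No rd10 library came near the others, and the log2 fold change was -4.09 ± 0.23 against wild type (adjusted p = 1.05e-06) and -4.29 ± 0.24 against GFP (adjusted p = 7.51e-07). Efemp1 and Fbln5, fibulins of elastic matrix, were among the higher ones, with log2 fold changes of 1.35 ± 0.19 and 1.61 ± 0.27 against wild type (adjusted p = 7.70e-04 and 0.00193).

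Of 13 matrix receptors other than integrins, 5 were higher and 1 lower than in wild type, and 7 did not pass. The hyaluronan receptor Cd44 had 62.4, 79.8 and 60.4 CPM in rd10, 17.5, 11.6 and 9.73 CPM in GFP and 12.6, 22.3 and 15.9 CPM in wild type. Every rd10 library exceeded the 6 others, with a log2 fold change of 1.99 ± 0.27 against wild type (adjusted p = 5.14e-04) and 2.38 ± 0.28 against GFP (adjusted p = 1.55e-04). The collagen receptor Ddr1 rose as well, at 1.10 ± 0.16 (adjusted p = 7.62e-04), and dystrophin (Dmd), which ties the cytoskeleton to laminin through dystroglycan, fell. It had 56.3, 63.8 and 65.96 CPM in rd10, 212, 176 and 171 CPM in GFP and 225, 144 and 133 CPM in wild type. The rd10 libraries lay far below the 6 others, with a log2 fold change of -1.43 ± 0.21 against wild type (adjusted p = 7.95e-04) and -1.59 ± 0.21 against GFP (adjusted p = 3.92e-04). Of 19 integrin adaptors and adhesion kinases, 3 were higher, or 15.8% beside 14.5% of all tested genes, and 16 did not pass. The higher ones were Parva, Zyx and Parvb, at 0.84 ± 0.15, 0.70 ± 0.16 and 0.54 ± 0.17 on the log2 scale. Of 14 genes of TGF-beta signalling, 8 were higher and none lower. Tgfb2, a TGF-beta ligand, had 194, 192 and 175 CPM in rd10, 90.2, 104 and 97.8 CPM in GFP and 91.9, 80.5 and 85.9 CPM in wild type. All rd10 libraries lay above the 6 others, with a log2 fold change of 1.12 ± 0.13 against wild type (adjusted p = 2.21e-04) and 0.94 ± 0.13 against GFP (adjusted p = 6.61e-04). The receptor Tgfbr2 and its effector Smad3 stood at 1.18 ± 0.28 and 0.94 ± 0.20 against wild type (adjusted p = 0.0109 and 0.00599).

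**Figure D5:**
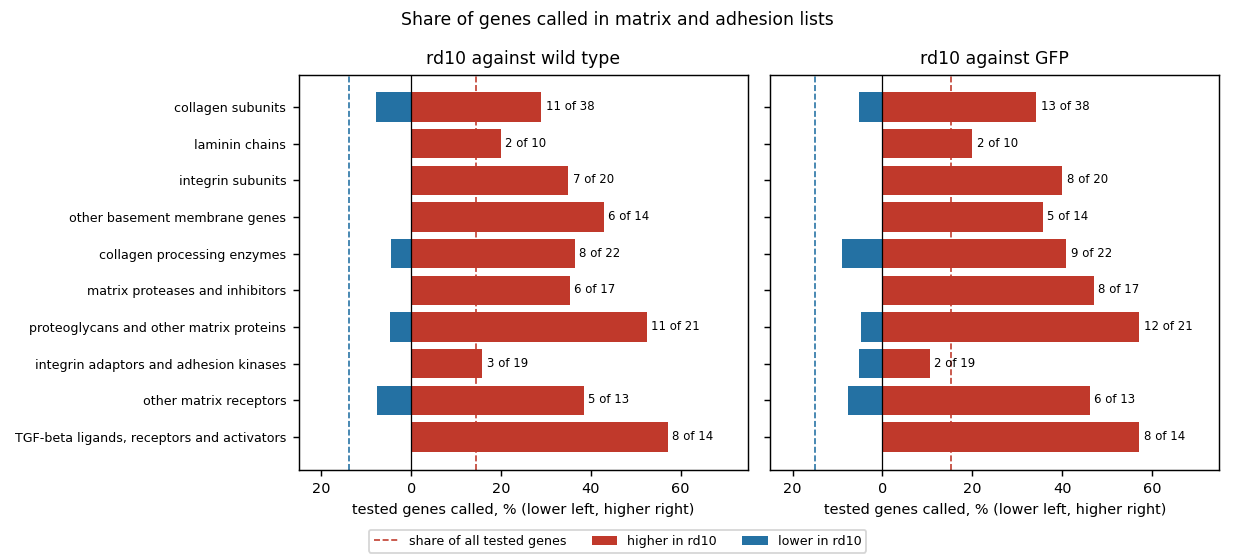
Share of tested genes called higher (right of 0, red) or lower (left of 0, blue) in 10 lists of matrix and adhesion genes, in rd10 against wild type (left) and rd10 against GFP (right). Numbers give the genes called higher of those tested, and dashed lines give the shares over all tested genes. The bars include Itga8, Itgax, Itgb3, Itgb4 and Col13a1, which reached the count minimum only through rd10. Without these genes the integrin shares called higher were 25% and 37.5%. Integrin adaptors lie near the line for higher genes, with 3 of 19 and 2 of 19.

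Markers of vessels, glia, pigment epithelium and retinal neurons were counted beside these genes. Of all tested genes, 14.5% were higher against wild type and 15.2% against GFP. Of 12 endothelial markers only Kdr was higher in rd10, and the list summed to 670.0 to 973 CPM in rd10, 205 to 442 CPM in GFP and 219 to 375 CPM in wild type. Of 11 markers of pericytes and smooth muscle none passed in either comparison. All 11 Müller glial markers were higher in rd10 in both comparisons, as were 5 of 7 astrocyte markers. Of 10 markers of the pigment epithelium, 4 were higher than in wild type and 5 than in GFP, and the list summed to 1104 to 1344 CPM in rd10, 673 to 885 CPM in GFP and 567 to 982 CPM in wild type. Of 4 bipolar markers 3 were higher in each comparison, as were 2 of 2 amacrine and 2 of 3 ganglion cell markers. Their median log2 fold changes against wild type were 1.12, 0.58 and 0.92. Of 5 cone markers none was higher and 1 was lower in each comparison. The part of these cells in the results above was not tested.

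In GFP against wild type, none of the 75 genes passed in either direction (edgeR quasi-likelihood test, 0 with DESeq2 as well), as none of the 14300 tested genes did (0%). At an unadjusted p under 0.05 there were 2 of the 75 and 1.5% of all genes. The 3 smallest unadjusted p were those of Col13a1, Col19a1 and Itga2b, with log2 fold changes of -2.39, -0.81 and -1.24. Itga2b had 0.998, 0.802 and 1.14 CPM in GFP and 2.83, 2.50 and 1.70 CPM in wild type, and the 2 groups did not overlap. In the same comparison 1 gene of the 75 had all GFP libraries above all wild type libraries and 1 had all below, beside 1.52% and 2.46% of tested genes.

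The calls were not equally firm. When each of the 9 libraries was left out in turn, 13 of the 25 genes called against wild type and 18 of the 26 called against GFP were called in every fit. Col24a1, Col17a1, Col19a1, Col1a2, Col2a1, Col23a1, Col8a1, Col9a1, Col9a3, Lamb2, Tnc and Itgb4 were among them in both comparisons. Of these, Itgb4 reached the count minimum only through rd10. Without wild type 3 the number called against wild type fell to 16, and the share of all tested genes called fell from 28.4% to 18.8%. The calls that ended were those of Col18a1, Col22a1, Fn1, Itga3, Itga7, Itga9, Itgav, Itgax and Lama5. Some genes that were not called passed once 1 library was left out. Against wild type, leaving out GFP 2, whose values enter the shared estimate of spread, brought in Col12a1, Col15a1, Col25a1, Itga4, Itgb1, Itgb2, Itgb5, Itgb8, Lama1 and Lamc1, with adjusted p from 0.0131 to 0.0484. Without rd10 2, Col4a4 passed against wild type at -2.19 (adjusted p = 0.0147) and against GFP at -1.95 (0.0222), and Col4a3 passed against GFP at -1.97 (0.0157). Without GFP 1, Col4a2, Col4a5 and Col4a6 passed against GFP at 1.53, 1.94 and 2.73 (adjusted p = 0.0431, 0.00573 and 0.0193). Lama1 (0.0105), Fn1 (0.0398), Col12a1, Lamb1, Itga5 and Col11a2 passed against GFP in that fit as well. Without rd10 3, Col5a2 and Itgb1 passed against wild type. Without wild type 1, Col11a1 (0.0492) and Col12a1 passed against wild type and Col8a2 (0.0305), Fn1 and Col12a1 against GFP.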

How the data were processed

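Whole retina libraries of 3 rd10, 3 GFP-expressing and 3 wild type mice were compared as deposited. The files hold 1 count per gene and library, read as the authors' raw counts because all values were whole numbers with differing totals. Per the submitters' processing notes the build was mm9, and the aligner, the counting program and its strand setting are not given in the sources used here. Positions in the text are those of the files, with 1 added to each start.

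Genes were kept by filterByExpr (minimum count 10, minimum total 15) of edgeR 4.0.16 in R 4.3.3, and library sizes were scaled by TMM. All 9 libraries entered 1 edgeR quasi-likelihood model whose 3 group means were contrasted in pairs, with Benjamini-Hochberg adjustment over all 14300 tested genes and a threshold of 0.05. The procedure was tested on simulated data. Unless another method or fit is named, an adjusted p given here is that of this edgeR test and measures the spread between these libraries. Those of named alternatives come from the changed edgeR fit or from DESeq2's own test.

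Chi-square per degree of freedom between replicates was 13.0 to 76.1. The genes and lists were chosen with earlier results of these data known. Named were, per role, up to 5 genes with the smallest adjusted p in rd10 against wild type, the 2 with the highest mean, genes called against the trend of their role and 10 fixed genes. Col4a4, Col4a5, Col4a6, Col11a1, Col12a1, Col13a1, Col15a1, Col25a1, Itga3 and Lama1 were added after their values were seen. Up to 3 genes per other list were named by the same test. Transcript lengths came from GENCODE (GRCm38), matched by symbol, and promoter windows from RefSeq (GRCm38.p6). Alternatives were DESeq2 1.42.0, other scalings, filters and models, a correction for transcript length, and leaving libraries out. The values of 1 of the 75 genes are not reported here.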

Additional observations from a re-analysis of the deposited data

How the results depend on the processing

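The number of genes called against wild type, 25, was 16 to 35 when each library was left out in turn and 20 to 35 under the other alternatives. The share of all tested genes called moved too. It was 28.4% in the main fit, 18.8% without wild type 3 (16 genes) and 37.3% without GFP 2 (35 genes). In rd10 against GFP that share was 20.2% without GFP 3 (18 genes) and 29.5% without GFP 1 (35 genes). Against GFP, 26 genes were called, with 18 to 35 when a library was left out. Under the other alternatives that keep more than 1 library in every group the number was 22 to 38. Of these counts only those without wild type 3 (16) and without the 5 libraries with lens RNA (43 against GFP) differed by more than 1.5 times, and the cause was not tested. Without those 5 libraries GFP and wild type have 1 library each and the spread comes from rd10 alone. In GFP against wild type, 0 of the 75 genes were called in each fit that left out 1 library. With replicate number as a block 26 and 28 genes were called, beside 25.2% and 27.3% of all tested genes. The named results that changed their call there were Fn1 against GFP and Col12a1 in both comparisons. Correlations between same-numbered libraries of different groups ran from -0.37 to 0.36, and those between differently numbered ones from -0.43 to 0.48. With 3 libraries per group these values cannot decide whether the numbers pair the samples. In fits of only the 2 groups compared, the calls of Lama5, Itgb1 and Col25a1 against GFP ended (adjusted p = 0.0638, 0.0582 and 0.0667). Library totals in place of scaled sizes moved the median log2 fold change of all genes by 0.29 against wild type and 0.33 against GFP. With them 34 and 38 genes were called, beside 32.7% and 35.6% of all tested genes. Of the named genes, those that changed sign under an alternative were not called in rd10 against wild type or GFP, and the cause of each change was not tested. Against wild type, library totals gave 0.17 for Col4a1 and 0.17 for Col7a1. Leaving out the libraries with lens RNA gave -0.34 for Col27a1, 0.39 for Col4a1, -0.20 for Col6a2 and 0.013 for Itgb1bp1. The lens sum as a term gave 0.54 for Col4a1, and removing the length trend gave -0.18 for Col27a1 and -0.22 for Col4a2. Leaving out wild type 3 and GFP 2, chosen after the data were seen, gave -0.087 for Col4a2 and 0.059 for Col7a1. Against GFP, library totals gave 0.089 for Col4a1, 0.025 for Col20a1 and 0.28 for Itgb1bp1, and upper quartile scaling gave 0.051 for Itgb1bp1. Leaving out the libraries with lens RNA gave 0.53 and the lens sum as a term 0.35 for Col4a1. Removing the length trend gave -0.046 for Col4a2, -0.22 for Col7a1 and 0.040 for Itgb1bp1, and leaving out wild type 3 and GFP 2 gave -0.38 for Col4a2 and 0.069 for Itgb1bp1. When 1 library was left out, values against wild type ran from -0.22 to 0.33 for Col27a1, -1.14 to 0.72 for Col4a1, -0.55 to 0.55 for Col4a2, -0.12 to 0.56 for Col6a1 and -0.41 to 0.16 for Col7a1. Against GFP they ran from -1.25 to 1.72 for Col4a1, -0.58 to 1.53 for Col4a2, -0.077 to 0.22 for Col7a1 and -0.15 to 0.074 for Itgb1bp1.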
